A study of Mus musculus with 6 samples.

Results

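The cells described here were Fabp6-high enterocytes of the mouse ileal crypt preparation, 427 of 8422 kept cells. A cell is a droplet barcode with at least 5000 unique molecular identifiers (UMIs, 1 for each captured RNA molecule), at least 500 genes and at most 20% mitochondrial UMIs. A kept cell was a member if Fabp6 made up at least 0.1% of its UMIs and if at least 2 of the 4 partner genes Slc51a, Slc51b, Mep1a and Slc5a8 were detected in it. Cells in which the 6 goblet cell genes reached 1% of the UMIs, or the 7 Paneth cell genes 10%, were left out. The members were thus chosen by their measured RNA levels, so the levels of the 5 genes, and every contrast of members with other cells, are descriptions without a test.

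Single-cell RNA libraries were made from epithelial cells that had been sorted for EpCAM, an epithelial surface protein, out of ileal crypts. The mice were 8 to 12 weeks old and matched for sex and age. Fpr2f/f mice (3 libraries, called wild type in the labels) carried Fpr2, a receptor for formylated peptides, flanked by loxP sites and intact, and Fpr2VKO mice (3 libraries) carried the same floxed gene together with Cre driven by the Villin promoter, which deletes it in intestinal epithelium. The study compared the epithelium of the 2 genotypes, and here the question was put to 1 kind of enterocyte.

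Enterocytes are the absorptive cells of the intestine, and in the distal ileum they return bile acids from the lumen to the blood. Slc10a2 takes up bile acids at the apical membrane, Fabp6 binds them in the cytosol, and the Slc51a and Slc51b proteins together form the basolateral exporter. The nuclear receptor encoded by Nr1h4 senses bile acids and turns on Fabp6, both exporter genes and Fgf15, a hormone that lowers bile acid synthesis in the liver. Mep1a encodes a subunit of the brush border protease meprin, and Slc5a8 a sodium-coupled transporter of monocarboxylates.

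Because the members were chosen through bile acid genes, the DNA just upstream of these genes is shown. The sequences are the 250 bases before the RefSeq start of Fabp6 (chr11:43601563-43601812, minus strand) and of Slc51a (chr16:32487880-32488129, minus strand) in GRCm38.p6, read 5′ to 3′ toward the gene. Capitals mark matches on either strand to the nuclear receptor motif AGGTCA or to GGTNANTNACC, an inverted repeat with 1 base between its arms, the arrangement that the Nr1h4 protein is known to bind.
Fabp6: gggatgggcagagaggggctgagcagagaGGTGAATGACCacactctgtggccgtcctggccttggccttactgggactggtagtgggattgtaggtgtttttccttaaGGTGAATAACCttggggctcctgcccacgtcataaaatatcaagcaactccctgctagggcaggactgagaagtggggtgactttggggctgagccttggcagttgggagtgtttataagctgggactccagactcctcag
Slc51a: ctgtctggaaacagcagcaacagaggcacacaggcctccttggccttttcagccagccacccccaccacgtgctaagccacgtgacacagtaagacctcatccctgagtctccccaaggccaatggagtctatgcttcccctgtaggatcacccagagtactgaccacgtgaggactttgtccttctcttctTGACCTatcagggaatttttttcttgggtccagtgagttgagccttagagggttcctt
The Fabp6 window held the inverted repeat at positions -221 and -141 from the start. The Slc51a window held AGGTCA on its other strand at position -58, and the Slc51b window held AGGTCA at -203 and the inverted repeat GGTCATTCACC at -186. The windows of Mep1a, Slc5a8 and Slc10a2 held neither motif. Of 32851 RefSeq windows of this length, 14% held AGGTCA and 0.219% held GGTNANTNACC, which was written after these windows had been read. A match describes letters and no binding was measured.

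Each library held 90142126 to 189516114 UMIs over all barcodes, of which the members contributed 532022 to 3569681. Members carried a median of 16408 to 24494 UMIs and 4114.5 to 5085 genes per library. The Fpr2f/f libraries gave 24 members of 980 kept cells (2.45%, exact 95% binomial interval 1.58 to 3.62%), 75 of 2117 (3.54%, 2.80 to 4.42%) and 160 of 1302 (12.3%, 10.6 to 14.2%). The Fpr2VKO libraries gave 60 of 1382 (4.34%, 3.33 to 5.55%), 45 of 1557 (2.89%, 2.12 to 3.85%) and 63 of 1084 (5.81%, 4.49 to 7.37%). Fpr2f/f replicate 3 stood apart, with the highest share of members and the most Fabp6 RNA in barcodes of under 100 UMIs, where Fabp6 was 0.0878% of the UMIs against 0.00999 to 0.0290% in the other 5 libraries. Mean shares were 6.09% ± 5.39 in Fpr2f/f and 4.35% ± 1.46 in Fpr2VKO (SD, n = 3 libraries each), a difference that was smaller than the spread between libraries (-1.75 percentage points, exact two-sided permutation test, p = 0.9, where the smallest possible p is 0.1). Without Fpr2f/f replicate 3 the difference turned to 1.35 percentage points in the other direction (exact permutation p = 0.4). The intervals cover counting error only.

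Within the members Fabp6 ranged widely. Its median share of the UMIs of a member was 0.211%, 0.432% and 0.891% in Fpr2f/f replicates 1, 2 and 3, and 0.541%, 0.531% and 0.592% in Fpr2VKO. The highest member of each library reached 2.62 to 6.07%. In Paneth cells of the same libraries, which should lack the gene, Fabp6 was 0.00022 to 0.0020% of the UMIs. In goblet cells it was 0.0033 to 0.0288%, with the highest value in Fpr2f/f replicate 3. At the limit of the rule, 13 members lay between 0.1 and 0.12%, and 28 cells that met every other condition lay between 0.08 and 0.1%. Outside the limits on cells, 206 of 9883 barcodes with 20 to 40% mitochondrial UMIs met the rest of the rule. So did 152 of 6463 barcodes with 2000 to 5000 UMIs, and neither set was counted among the members. All 4 partner genes were detected in 225 members, 3 in 117 and 2 in 85. No member barcode was a member in another library, and 6 of the 427 were kept cells of another library.

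**Figure D1:**
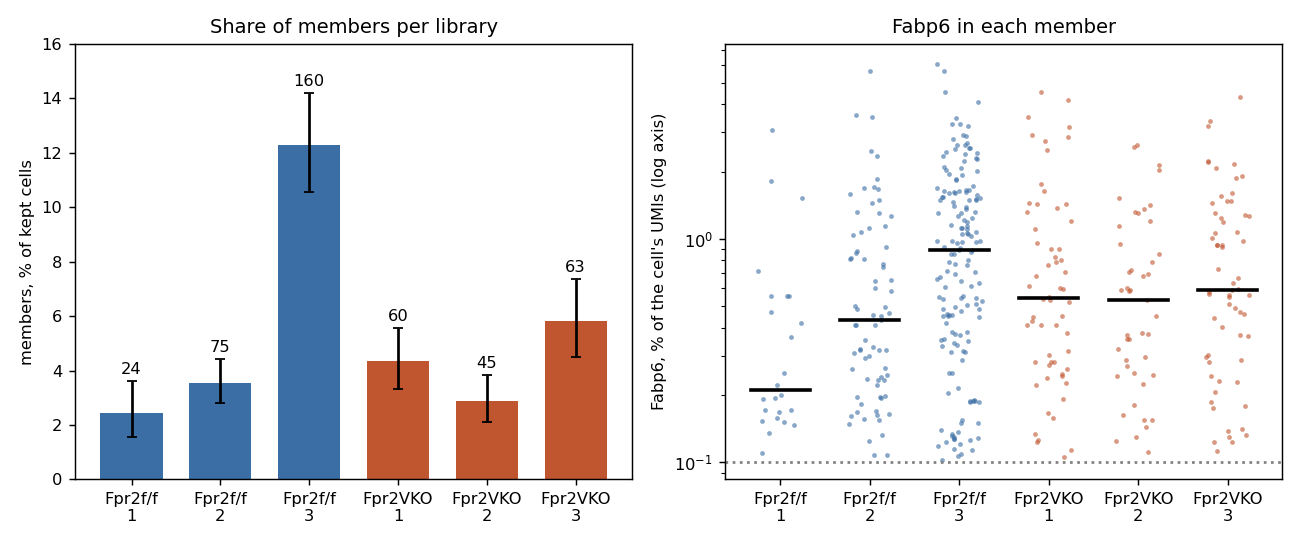
Left, members as a percentage of the kept cells of each library, with exact 95% binomial intervals and the number of members above each bar. Right, Fabp6 as a percentage of the UMIs of each member on a log axis, with the library median as a line and the limit of 0.1% dotted. Fpr2f/f replicate 3 has the largest share (12.3%) and the highest median (0.891%).

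The remaining bile acid genes bore on the label without having been used by the rule. Slc10a2 in the summed members stood at 35.7, 35.7 and 113 counts per 1000000 UMIs (CPM) in Fpr2f/f and 91.7, 36.7 and 102 CPM in Fpr2VKO, whereas in all other kept cells it stood at 1.07 to 3.41 CPM. All 6 member values lay above all 6 values of the other cells. With every cell thinned to 5000 UMIs, Slc10a2 was detected in 8.33 to 31.2% of members, in 0 to 1.90% of Paneth cells and in 0 to 4.55% of goblet cells. Nr1h4 stood at 242 to 411 CPM in members and 63.4 to 85.7 CPM in the other cells. Fgf15 was scarce, at 1.42 to 18.2 CPM in members against 1.14 to 2.36 CPM. Nr0b2, a repressor induced by the same receptor, reached at most 1.93 CPM, and Gpbar1, the membrane receptor for bile acids, at most 0.628 CPM. Among the 12 listed genes of bile acid handling, 6 were higher in members in all 6 libraries, where 20.9% of 12783 genes were.

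Most listed brush border genes were higher in members than in the other kept cells. All 13 listed genes of microvillus structure were higher in members than in the other kept cells of the same library, in all 6 libraries, with a median log2 ratio of 1.09 against 0.01 over all genes. Vil1, which bundles actin in microvilli, stood at 533 to 999 CPM in members and 265 to 406 CPM elsewhere. Espn, a further actin bundler, stood at 22.2 to 55.7 CPM against at most 10.9 CPM (log2 ratio 1.95). Of 15 brush border hydrolases, 12 were higher in all 6 libraries (median log2 ratio 1.67), among them Mep1b, the second meprin subunit (289.8 to 541 CPM against 81.2 to 119.7), Naaladl1, a peptidase (310.2 to 409.8 against 33.4 to 67.1), and Sis, sucrase-isomaltase (766 to 2457 against 361 to 612). Lct, lactase, stood at 0 to 8.68 CPM in members and was below the other cells in 5 of 6 libraries. CPM was used here to compare cells, and not genes, with each other.

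All 11 listed genes of epithelial defence were likewise higher in all 6 libraries (median log2 ratio 1.44). Reg3b, a secreted antibacterial lectin, stood at 36826, 15671 and 22288 CPM in Fpr2f/f members and 21491, 26080.0 and 10060.0 CPM in Fpr2VKO members, against 2374 to 9231 CPM in the other cells. All 6 member values lay above all 6 values of the other cells. Duox2, an oxidase that makes hydrogen peroxide at the apical surface, stood at 209.6 to 378 CPM against 58.4 to 167. Ceacam20, a microvillus adhesion protein, stood at 86.0 to 185 CPM against 14.9 to 18.9.

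Markers of goblet, Paneth, stem and dividing cells were lower in members. The 6 goblet genes, the 7 Paneth genes, the 5 stem cell genes and the 8 proliferation genes were each lower in members in all 6 libraries, where 19.4% of all genes were. Paneth genes summed to 92.1 to 1603 CPM in members and 35151 to 119540 CPM elsewhere, and goblet genes to 107 to 755 against 7439 to 14050. The rule had limited both lists. Proliferation genes summed to 276.5 to 622 CPM in members against 896 to 1264 CPM elsewhere, and at least 1 of Mki67, Top2a, Ccnb1, Cdk1 and Birc5 was detected in 26.3 to 42.9% of the thinned members. Enteroendocrine genes summed to 16.3 to 48.9 CPM with Neurod1 at 0, and immune genes to 1.88 to 58.3 CPM. The 6 tuft cell genes were not lower: they summed to 0.966 to 67.7 CPM in members against 14.1 to 41.4 CPM elsewhere, and none of them was lower, or higher, in all 6 libraries. Of the 9 genes of the villus tip, none was higher in all 6 libraries and 3 were lower. Ada and Nt5e, enzymes of purine breakdown at the villus tip, were near 0 in most libraries.

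The members were next set beside cells that expressed the partner genes but little Fabp6. This set, chosen after the data had been seen, held the 549 kept cells with at least 3 partner genes and Fabp6 under 0.1%, with a median of 26014 to 47225 UMIs per library, deeper than the members. Members were lower than these cells in Fabp1, the fatty acid binding protein of the more proximal small intestine, at 278, 39.6 and 75.9 CPM in Fpr2f/f and 74.8, 61.8 and 33.4 CPM in Fpr2VKO against 768 to 4521 CPM. The sets did not overlap in Fabp1, with a median log2 ratio of -4.86. Gata4, a transcription factor that is known to mark the proximal part of the small intestine, followed the same order, with 43.4 to 97.7 CPM in members against 144 to 198 CPM (log2 ratio -1.78). Of the 15 listed intestinal transcription factors, Gata4 was the 1 that was lower in all 6 libraries. In the same list 5 were higher (median log2 ratio 0.17), where 6.87% of 11952 genes were lower and 8.22% higher. Slc2a2, the basolateral glucose transporter, stood at 0 to 7.73 CPM against 19.5 to 89.6, and Apoa4, an apolipoprotein of chylomicrons, at 1.88 to 50.9 against 68.7 to 272 CPM.

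Genes of lipid and nutrient uptake were often lower in members than in the Fabp6-low cells. Of 17 lipid absorption genes, 10 were lower in members than in the Fabp6-low cells in all 6 libraries and the median log2 ratio was -0.96, where 6.87% of 11952 genes were lower in all 6. Rbp2, the retinol carrier of enterocytes, and Adh1, an alcohol dehydrogenase, were among the genes furthest below (log2 ratios -3.92 and -4.21). Of 14 nutrient transporters, 6 were lower (median -0.70). Of the 15 brush border hydrolases, which were mostly higher in members than in all other kept cells, 5 were lower than in the Fabp6-low cells and 1 was higher (median -0.46). Of the 13 microvillus genes 1 was higher and none lower (median -0.03). Genes higher in members in all 6 libraries made up 8.22% of those compared. They included Fabp6 (median log2 ratio 6.25), Slc10a2 (4.28, with 0.426 to 5.02 CPM in the Fabp6-low cells), Ddah1, an enzyme that degrades methylated arginine (2.14), and Guca2a, the precursor of guanylin (1.87). Of the 12 bile acid genes, 3 were higher in members than in the Fabp6-low cells (Slc10a2, Nr1h4 and Rxra), 2 were lower (Abcc2 and Cyp3a13) and the median log2 ratio was -0.03, with summed levels of 618 to 939 CPM in members and 627 to 968 CPM in the Fabp6-low cells. Of the defence genes, 4 were higher in members (Reg3b, Duox2, Duoxa2 and Ceacam20) and 3 lower (Lypd8, Pigr and Il18). The median log2 ratio of that list was 0.10. Reg3b stood at 8566 to 35316 CPM in the Fabp6-low cells, close to its level in members (median log2 ratio 0.37, lowest 0.0175). The lowest log2 ratio of Ceacam20 was 0.027.

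**Figure D2:**
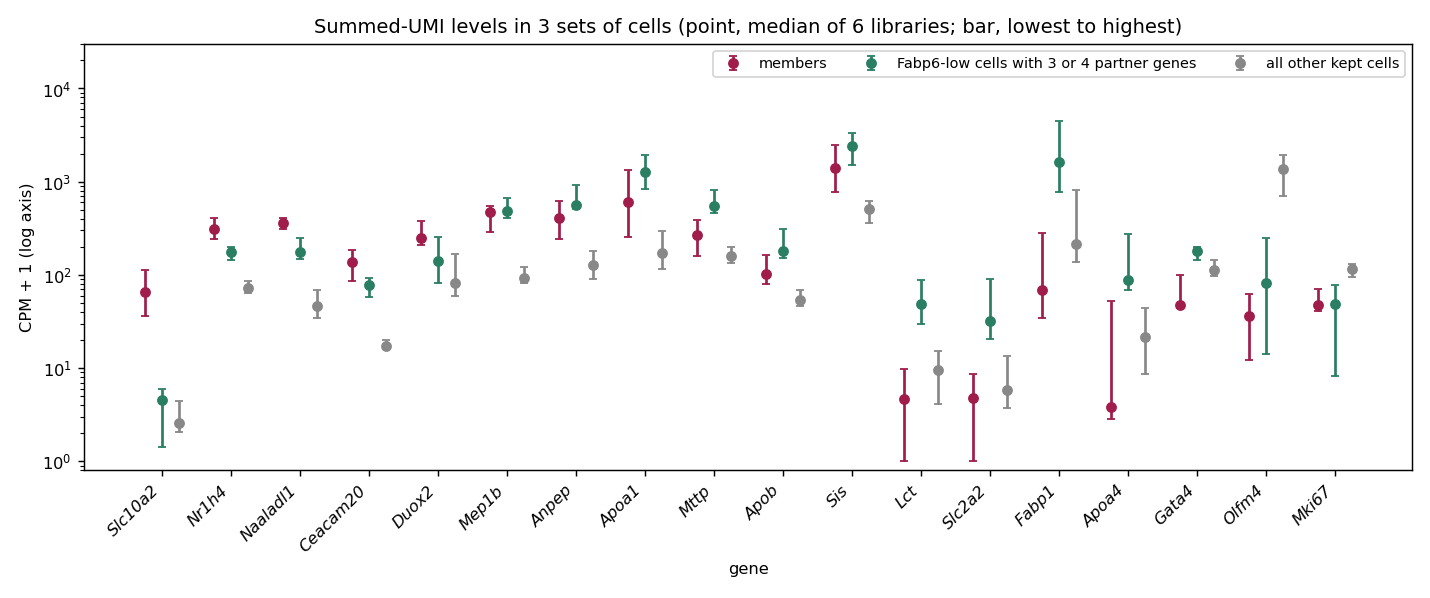
Level of 18 genes in members, in Fabp6-low cells with at least 3 partner genes and in the other kept cells, in CPM + 1 on a log axis; points are medians of 6 libraries and lines run from the lowest to the highest library. Fabp1, Gata4, Apoa4, Lct and Slc2a2 are lower in members than in Fabp6-low cells, and Slc10a2 is higher.

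In each library the members were also split into 3 equal groups by their own Fabp6 share, with each member thinned to 5000 UMIs. Median Fabp6 rose from 2053 CPM in the lowest to 17738 CPM in the highest group by construction. In the lowest and highest groups the brush border hydrolases summed to 3308 and 7062 CPM, the microvillus genes to 2797 and 4789 CPM and the defence genes to 29352 and 42691 CPM (medians of libraries). In all 6 libraries the highest group stood above the lowest for each of these 3 lists, with median log2 ratios of 0.65, 0.66 and 0.63. The same held for the 12 bile acid genes and the 6 listed genes of cobalamin and protein uptake. It also held for the 4 partner genes, but the rule had chosen the members through them, so their rise is a description. The 7 Paneth genes, which the rule limited, were likewise higher in the highest group in all 6 libraries (median log2 ratio 0.30). The share of all genes that did so is not given here. Slc10a2 stood at 27.5 and 142 CPM, higher in the highest group in 5 libraries and lower in 0. A group held 8 to 54 members, so low values rest on few UMIs. Anpep, aminopeptidase N, stood at 220.0 and 821 CPM. Apoa1, a main apolipoprotein of chylomicrons and high density lipoprotein, stood at 201 and 1526 CPM. The 17 lipid absorption genes together were higher in the highest group in 5 libraries and lower in 1, and Fabp1 was higher in 3 and lower in 3.

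Proliferation genes ran the other way, at 588 CPM in the lowest and 175 CPM in the highest group (median log2 ratio -1.64), lower in all 6 libraries. Hmgb2, a chromatin protein of dividing cells, followed them with 580.5 and 145 CPM. Before thinning, the lowest groups carried medians of 21271 to 32352 UMIs and the highest 11108 to 20661 UMIs. The part of depth in these gradients beyond the thinning was not tested.

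**Figure D3:**
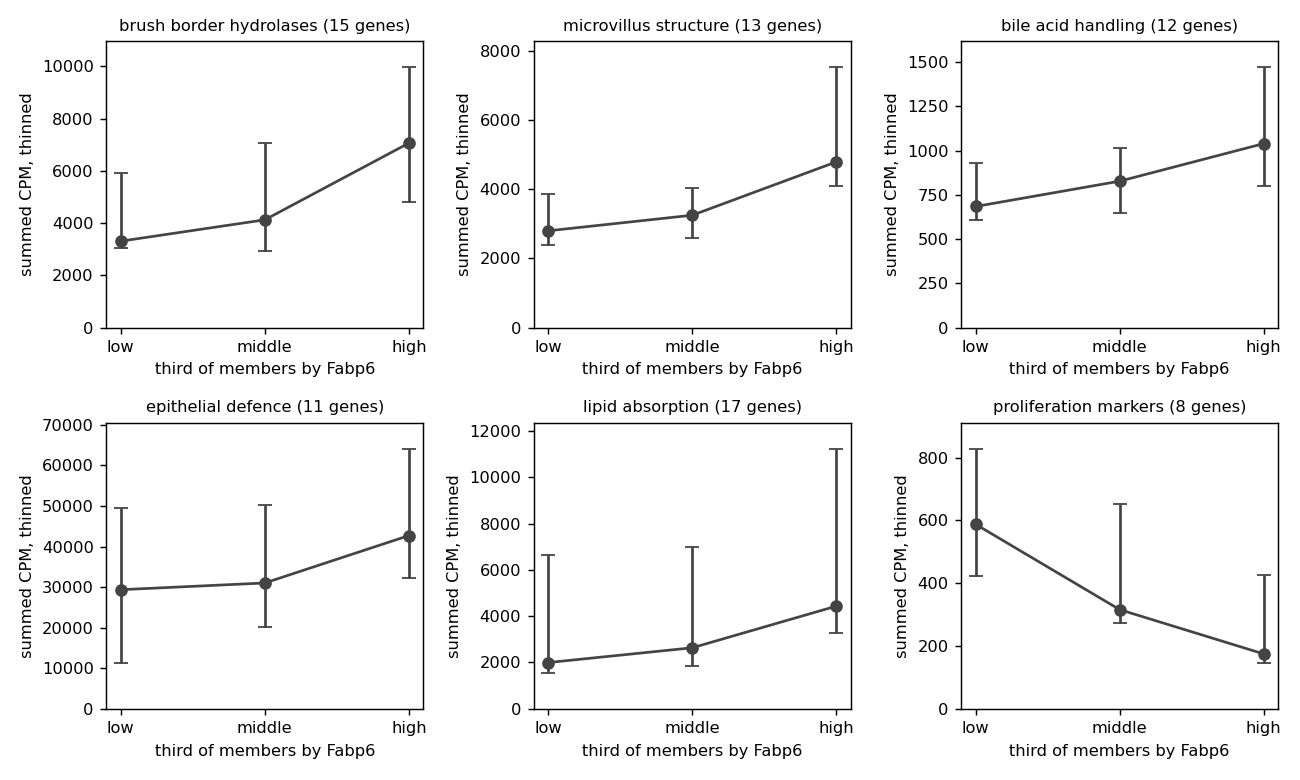
Summed level of 6 gene lists in the lowest, middle and highest of 3 equal groups of members by Fabp6 share, in CPM after thinning each member to 5000 UMIs; points are medians of 6 libraries and vertical lines run from the lowest to the highest library. Hydrolase, microvillus and defence genes are highest, and proliferation genes (588 to 175 CPM) lowest, in the group with most Fabp6.

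The genotypes were then compared within the members, on UMIs summed per library. Fpr2 itself had 0 UMIs in the members and in all barcodes of all 6 libraries, so the deletion could not be checked. A count of 0 allows 3 UMIs, or 0.840 to 5.64 CPM in the members of a library. Between Fpr2VKO and Fpr2f/f, 2 of 8872 genes passed edgeR's quasi-likelihood test (Benjamini-Hochberg adjusted p under 0.05, 0.0225% of the genes tested). Both were fitted higher in Fpr2VKO, and none passed as lower. Of these, Olfm4 is not read as a change in members, as set out below. DESeq2 also called 2. Without Fpr2f/f replicate 3, the library that stood apart, 13 genes passed (10 higher and 3 lower), without Fpr2f/f replicate 1 it was 4, and without Fpr2f/f replicate 2 or Fpr2VKO replicate 2 or 3 it was 1. An unadjusted p under 0.05 was reached by 2.67%, and the libraries of the genotypes did not overlap in 7.83% of the genes. The p-values measure the spread between libraries, 3 per genotype.

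Mt1, a metallothionein that binds zinc and copper (chr8:94179082-94180327), rose most clearly. Its level was 504, 367 and 558 CPM in Fpr2f/f members and 2243, 2079 and 2137 CPM in Fpr2VKO members. All Fpr2VKO libraries lay above all Fpr2f/f libraries. The log2 fold change was 2.18 (SE 0.19) with an adjusted p of 1.297e-06 in edgeR's quasi-likelihood test, and it stayed between 2.00 and 2.30 when each library was left out in turn. The rise was also present outside the members. In the other kept cells Mt1 stood at 294, 243 and 354 against 1051, 1087 and 1119 CPM (log2 fold change 1.90, SE 0.15, edgeR adjusted p = 0.001184), where it was the 1 gene that passed (0.00625% of those tested), and in the Fabp6-low cells, where it was again the 1 gene that passed (0.00986%), the log2 fold change was 2.18. The test of the difference between members and other cells did not pass (0.31 on the log2 scale, adjusted p = 1). Barcodes of under 100 UMIs carried 148 to 236 CPM of Mt1 in Fpr2f/f and 865 to 1111 CPM in Fpr2VKO, and the part of that free RNA in the members' values was not tested. The neighbouring gene Mt2 did not pass the test (log2 fold change 0.73, edgeR adjusted p = 1).

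Olfm4, a secreted glycoprotein of crypt stem cells (chr14:79984081-80023139), was the second gene to pass. It stood at 26.3, 11.3 and 19.0 CPM in Fpr2f/f members and at 43.4, 60.9 and 58.3 CPM in Fpr2VKO members (log2 fold change 1.66, SE 0.27, edgeR adjusted p = 0.01638). In the other kept cells it stood at 1037, 708 and 974 CPM against 1920, 1703 and 1757 CPM (log2 fold change 1.02, edgeR adjusted p = 0.1291). In the Fabp6-low cells it stood at 17.8, 13.1 and 57.9 against 248, 148 and 105 CPM (log2 fold change 2.45), which did not pass. The difference between members and other kept cells was 0.65 on the log2 scale and did not pass. With cells thinned to 5000 UMIs, Olfm4 was found in 4.17, 5.33 and 10.6% of Fpr2f/f members and in 30, 20 and 23.8% of Fpr2VKO members. Paneth cells, which should lack it, showed it in 27.1, 15.8 and 21.0% against 40.9, 25.3 and 27.9%, and goblet cells in 17.9 to 23.4% against 28.8 to 39.7%. The share in members lay at or below that in Paneth cells in every library, so no expression of Olfm4 by members, and no difference in it, is read from these values. Barcodes of under 100 UMIs carried 251 to 297 CPM of Olfm4 in Fpr2f/f and 546 to 647 CPM in Fpr2VKO, and the part of that free RNA in the members' values was not tested. The call was lost with Fpr2f/f replicate 2 left out (adjusted p = 0.2568), with Fpr2VKO replicate 2 or 3 left out (0.1754 and 0.236), and with the replicate number as a block (0.1165). It was also lost with Fabp6 limits of 0.2 and 0.5% (0.05342 and 0.4669), with members thinned to 5000 UMIs (0.1912) and with members that lacked a proliferation UMI (0.3947). Over all 20 alternatives its log2 fold change lay between 1.36 and 1.93.

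The other 8 genes with the smallest p did not pass. Oasl2, an interferon-induced gene, stood at 5.64, 13.1 and 20.2 CPM in Fpr2f/f members and 49.0, 27.1 and 37.7 CPM in Fpr2VKO members (log2 fold change 1.35, edgeR adjusted p = 0.482). Catalase (Cat) stood at 82.7, 75.7 and 112 CPM against 177, 119.8 and 174 CPM (0.80 on the log2 scale, adjusted p = 0.6895), and the value of Ifi27l2b was 0.70. Zfp949, Zfp981, Snhg6, Ndufs5 and Ppp6r1 had values from -0.83 to -1.25, each with an adjusted p of 0.607 or more. Without Fpr2f/f replicate 3 adjusted p-values fell under 0.05 for Oasl2 (0.02896), Cat (0.04164), Zfp981 (0.03243) and Ndufs5 (0.02695), and without Fpr2f/f replicate 1 for Zfp949 (0.04864). Gata4, which set the members apart from the Fabp6-low cells, stood at 97.7, 67.4 and 49.3 CPM in Fpr2f/f members and 43.4, 43.5 and 44.8 CPM in Fpr2VKO members. Its genotypes did not overlap, but the fold change did not pass (log2 -0.60, edgeR adjusted p = 1).

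**Figure D4:**
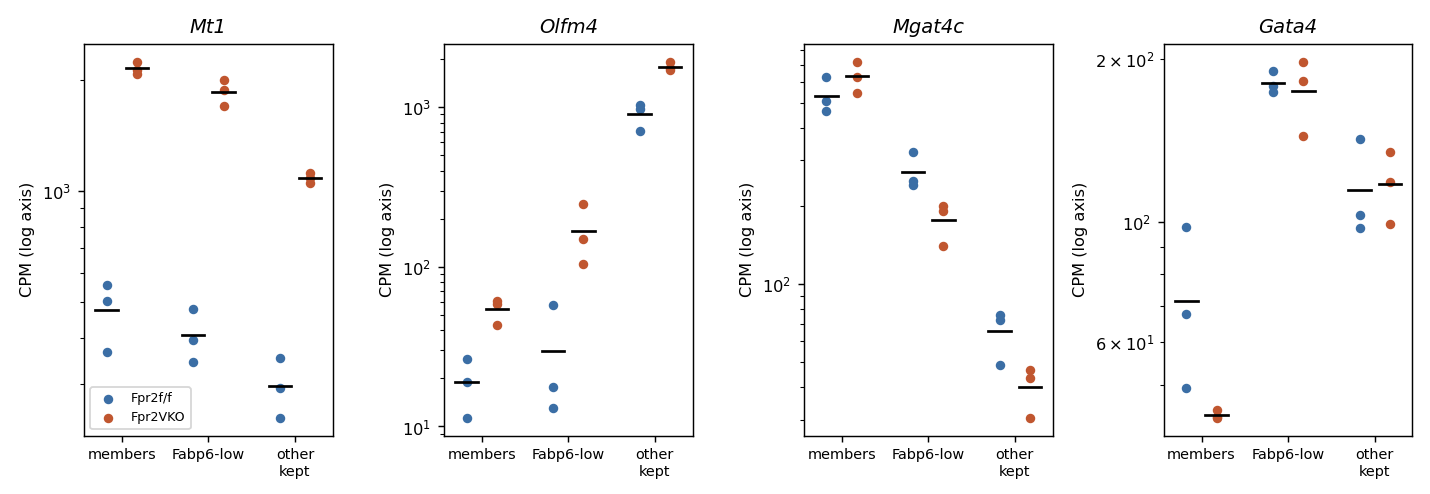
Mt1, Olfm4, Mgat4c and Gata4 in CPM of summed UMIs in members, Fabp6-low cells and other kept cells; each point is 1 library and each bar the mean of 3. Mt1 is higher in Fpr2VKO in all 3 cell sets. For Mgat4c every Fpr2VKO library lies below every Fpr2f/f library in the Fabp6-low and other kept cells but not in the members. The Mgat4c fold change did not pass in any of the 3 sets.

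No gene of the bile acid, hydrolase, microvillus, defence and lipid lists passed the test between genotypes. The 5 genes of the rule had log2 fold changes of 0.13 to 0.34. These are given without a test because the rule chose the members by these genes in both genotypes. Of 9 tested bile acid genes none passed and 7 were fitted above 0 (median 0.10), with Slc10a2 at 0.24. Of 13 tested hydrolases none passed and 5 were fitted above 0 (median -0.03), and of 13 microvillus genes none passed and 4 were fitted above 0 (median -0.07). Of 10 tested defence genes none passed and 2 were fitted above 0 (median -0.12), and of 13 lipid absorption genes none passed and 5 were fitted above 0 (median -0.09). Over all 8872 genes, 4476 were fitted above 0 and the median was 0.0019. With the genes of the rule set aside, no listed gene beyond Mt1 and Olfm4 passed.

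**Figure D5:**
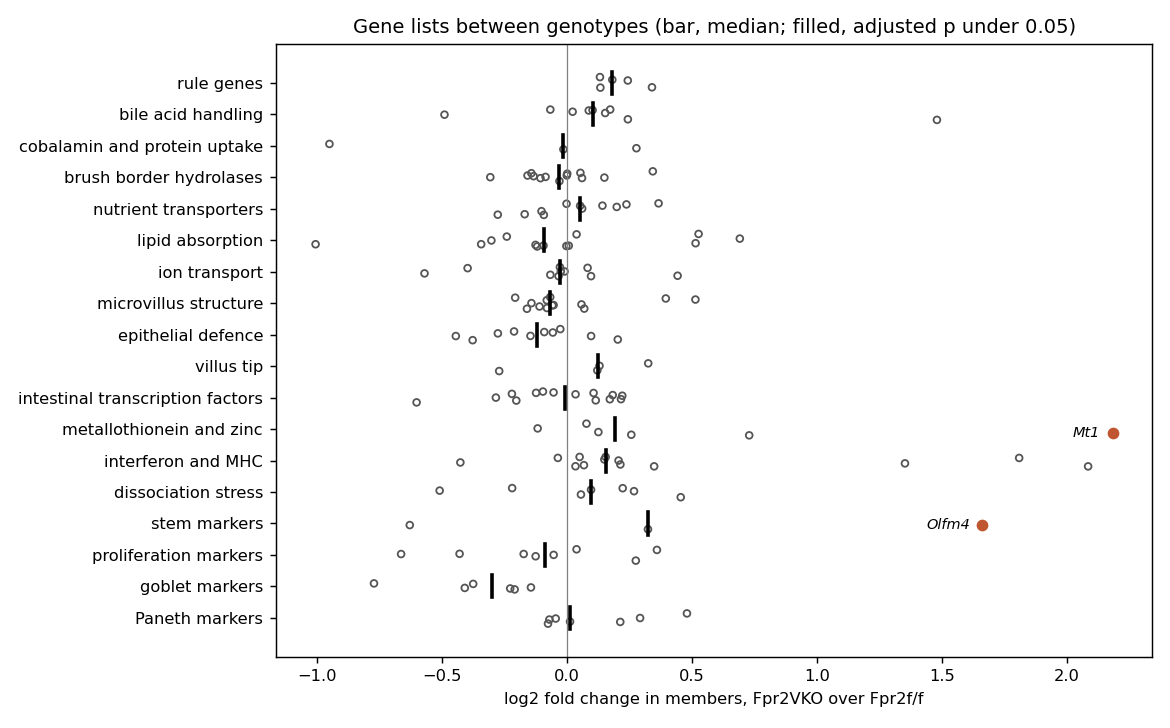
Log2 fold change of each tested gene in members, Fpr2VKO against Fpr2f/f, by gene list; bars mark list medians and filled points the genes with an adjusted p under 0.05. The medians of the bile acid, hydrolase, microvillus and defence lists lie between -0.12 and 0.10, and Mt1 and Olfm4 are the filled points.

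A last test asked whether any gene differed between genotypes in the members in another way than in the other kept cells, with each library as a block. Of 14351 genes 1 passed (0.00697%, with 3.18% at an unadjusted p under 0.05). It was Mgat4c, which encodes a protein of the N-acetylglucosaminyltransferase family (chr10:101681487-102391469). Mgat4c also ranked among the genes that set members apart, at 464 to 718 CPM in members against 30.4 to 76.1 CPM in the other cells. In members it stood at 506, 464 and 625 CPM in Fpr2f/f and 718, 627 and 546 CPM in Fpr2VKO, and the genotypes overlapped (log2 fold change 0.25, SE 0.18, edgeR adjusted p = 1). In the other kept cells Mgat4c stood at 72.5, 48.5 and 76.1 CPM against 46.7, 30.4 and 43.2 CPM (log2 fold change -0.69, edgeR adjusted p = 0.5623). Every Fpr2VKO library lay below every Fpr2f/f library there. The share of all genes without overlap in those cells is not given here, and in the members it was 7.83%. Mgat4c in barcodes of under 100 UMIs stood at 46.9, 32.0 and 48.8 CPM in Fpr2f/f and 30.7, 16.8 and 20.5 CPM in Fpr2VKO. The part of that free RNA in the values of the other kept cells was not tested. The difference between both fold changes was 0.94 (SE 0.15, edgeR adjusted p = 0.0006772), and it was at least 0.80 with each library left out in turn. The count of genes that passed grew to between 3 and 33 when a library was left out, with 33 without Fpr2f/f replicate 3. Against the Fabp6-low cells, at 322, 249 and 241 CPM in Fpr2f/f and 199, 140 and 192 CPM in Fpr2VKO, the difference was 0.89 (SE 0.21) and did not pass (adjusted p = 1). In that comparison no gene passed in edgeR's test, and 2.22% had an unadjusted p under 0.05.

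The fraction of Fabp6-high cells was counted over the 891 cells with at least 3 partner genes, a denominator chosen after the data had been seen. It held 342 members and left out the 85 members with 2 partner genes. The part of depth in the detection of 3 partner genes was not tested. The fraction was 22.4, 43.2 and 60.1% in Fpr2f/f and 31.0, 21.9 and 34.2% in Fpr2VKO, and the genotypes overlapped. The means were 41.9% ± 18.9 and 29.0% ± 6.36 (SD, n = 3 libraries each), given without a test because the rule used the same genes. The difference of -12.9 percentage points became -3.76 without Fpr2f/f replicate 3 and -22.6 without Fpr2f/f replicate 1.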

How the data were processed

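Ileal crypts were dissociated, sorted for EpCAM and captured as single cells on the MobiNova-100 platform. The study's methods name MobiVision and the mm10 genome, and the labels name Seurat 4.0.0 for later steps. The annotation used for counting is not given in the sources used here. The deposited values are raw UMI counts of 32285 genes for every barcode, which the authors had neither filtered for cells nor normalized.

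From these counts, barcodes with 5000 UMIs, 500 genes and at most 20% mitochondrial UMIs were kept, and members were chosen as stated above. No doublets were removed in the main analysis. Simulated doublet scoring marked the 101 kept cells with the highest scores, 2 of them members. That number was set beforehand by an assumed rate of 0.8% per 1000 kept cells. It therefore does not measure how many doublets were present. The members and gene lists were chosen with earlier results of these data known. UMIs were summed per library and tested with edgeR 4.0.16 (R 4.3.3) in a quasi-likelihood model with TMM scaling and its filter on low counts, Benjamini-Hochberg adjusted over all genes tested; shares were compared with exact two-sided permutation tests. Detection was compared after thinning each cell to 5000 UMIs. Log2 ratios between cell sets used a pseudocount of 1 CPM, and those between groups of members 10 CPM. Alternatives included DESeq2 1.42.0, other limits, other scaling and each library left out. Named genes were those of the rule and lists, genes that passed, otherwise the 10 with the smallest p at 20 CPM or more, and the leading genes between cell sets. Replicate numbers were checked for pairing across genotypes: the correlations of same-numbered libraries were -0.02, 0.15 and 0.02, so no block was used. Promoter sequences are from RefSeq and gene positions from GENCODE, both on GRCm38.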

Additional observations from a re-analysis of the deposited data

Results flagged for a closer look

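Mgat4c was singled out because its genotype difference in the members departed from that in the other kept cells of the same libraries, by 0.94 on the log2 scale (SE 0.15) in edgeR's quasi-likelihood interaction test with an adjusted p of 0.0006772. In the members the log2 fold change was 0.25 and in the other kept cells -0.69, and neither passed alone. The adjusted p lay between 7.259e-08 and 0.02036 with each library left out in turn. Between members and Fabp6-low cells the difference was 0.89 with an adjusted p of 1, and the Fabp6-low cells themselves had a log2 fold change of -0.64. Mgat4c was not a gene of the rule, but it was higher in members than in the Fabp6-low cells, with log2 ratios of 0.65 to 2.16 across libraries. The parts of the rule, of free RNA and of the different mixture of cells among the other kept cells were not tested.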

How the results depend on the processing

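The share of members was -1.75 percentage points in Fpr2VKO against Fpr2f/f and ranged from -3.57 to 1.35 with each library left out, turning to 1.35 without Fpr2f/f replicate 3; it kept its direction under the other 14 alternatives. The 2 genes that passed between genotypes became 5 with no filter on low counts, 4 at a Fabp6 limit of 0.5%, 5 at 10000 UMIs, 1 with members thinned, 5 with members of 3 or 4 partner genes (an alternative chosen after seeing the data) and 1 to 13 with each library left out. The 1 gene of the interaction became 6 with no filter, and 2, 4 and 13 at Fabp6 limits of 0.05, 0.2 and 0.5%. The count was 2 at 2000 and 2 at 10000 UMIs, and 7 at 40% mitochondrial UMIs. It was 3 without the marked doublets and 3 to 33 with each library left out. In alternatives chosen after seeing the data, the count was 2 with 3 or 4 partner genes. In further alternatives of that kind it was 20 with members that lacked a proliferation UMI and 0 against Fabp6-low cells. The cause was not tested.

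The replicate number as a block left 1 gene, but same-numbered libraries share only a number: their correlations were -0.02, 0.15 and 0.02.

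List medians moved by more than the spread between libraries in 15 cases and by less in 338. At a Fabp6 limit of 0.5% they were 0.32 for nutrient transporters (library left out, -0.29 to 0.21), 0.11 for microvillus (-0.19 to 0.086) and 0.092 for defence genes (-0.40 to -0.012). Without a proliferation UMI they were -0.29 for the villus tip (-0.26 to 0.24) and -1.31 for goblet genes, and with thinning 0.15 for transcription factors (-0.059 to 0.082) and 0.51 for proliferation genes. With each library left out, the medians were -0.027 to 0.33 for bile acid genes and -2.663e-05 to 0.50 for stem genes. Among the values of single named genes, 8 lost their call, all of Olfm4, 10 gained one and 181 did neither. Libraries with under 20 members were left out, which left 5 libraries at Fabp6 limits of 0.2 and 0.5%, at 10000 UMIs and in both alternatives on partner genes and proliferation. A limit of 10% mitochondrial UMIs was not run for the tests across genes because too few members were left.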
